A study of Homo sapiens with 160 samples.

Results

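The pregnancy-specific glycoproteins are secreted proteins of the carcinoembryonic antigen family, and the 10 protein-coding human genes PSG1, PSG2, PSG3, PSG4, PSG5, PSG6, PSG7, PSG8, PSG9 and PSG11 were followed in BEAS-2B cells, an immortalised line from human bronchial epithelium. They are 10 of the 29273 genes with a deposited value. They were taken by symbol, and the family was chosen by its lower values with mometasone in these same libraries. Levels of mometasone against vehicle, and of all 3 agents against indacaterol with carbachol, were therefore in view when the genes were chosen and are only described here. Tests were kept for mometasone added to indacaterol and to carbachol, for the agents without mometasone, and for time. Earlier results of these data were known by then, and the vehicle libraries entered the choice. These tests are therefore not fully independent of it.

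All groups were wild-type BEAS-2B cells, a single line, confluent and without serum since the previous night, and none received a further agent. Vehicle cells were compared with cells given mometasone, a glucocorticoid, at 100 nM, indacaterol, a long-acting β2-adrenoceptor agonist, at 100 nM, carbachol, a muscarinic receptor agonist, at 10 µM, the 3 pairs of these, or all 3 together. RNA was taken at 1, 2, 6 and 18 h, which gives 32 groups. Of the 160 samples, 150 were used, with 5 libraries in 24 groups and 4 in 6 groups. Only 3 were left at 18 h for mometasone by itself and for the triple combination. Since the labels do not say whether replicates were separate cultures, the p-values reflect sample-to-sample spread that could be technical. Values are a normalised signal per gene that the authors name TPM, read depth is unknown, and the spread between replicates is the only measure of precision.

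Pregnancy-specific glycoproteins are made mainly by the syncytiotrophoblast of the placenta, from which they reach the maternal blood in large amounts. They consist of immunoglobulin-like domains, lack the membrane anchor of many of their relatives, and are known to bind integrins, heparan sulfate proteoglycans and the latent form of TGF-β. Transcription of the genes in trophoblast has been tied to GC-rich promoter elements bound by Sp1, KLF4, KLF6 and GABP factors rather than to a TATA box. Mometasone acts through the glucocorticoid receptor, a nuclear receptor that raises some genes and lowers others.

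The family lies in one block of chromosome 19, and its members are close copies. In GENCODE 29 (GRCh38) the 10 genes span 42721638 to 43269530 on that chromosome, 547.9 kb, and all 10 are on the minus strand. PSG3 (ENSG00000221826.9, 42721638 to 42740569) begins the block and PSG9 (ENSG00000183668.17, 43211791 to 43269530) ends it, while PSG5 (ENSG00000204941.13) lies at 43166256 to 43186536 and PSG1 (ENSG00000231924.9) at 42866464 to 42879822. The first 60 coding bases of 1 coding transcript of each gene are printed to show how alike the genes are at the letter level. That transcript was chosen by its APPRIS (principal isoform) tag and then by coding length. Each is read 5′ to 3′ from the GENCODE transcripts, and capitals mark the bases that differ from PSG5, the member with the highest level in these cells.
PSG5: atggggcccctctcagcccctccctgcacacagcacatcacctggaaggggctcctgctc
PSG3: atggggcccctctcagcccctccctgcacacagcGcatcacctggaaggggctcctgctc
PSG4: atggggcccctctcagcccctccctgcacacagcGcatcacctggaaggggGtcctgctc
PSG6: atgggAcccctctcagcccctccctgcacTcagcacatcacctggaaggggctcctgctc
PSG8: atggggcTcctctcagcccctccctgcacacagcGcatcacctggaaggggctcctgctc
PSG7: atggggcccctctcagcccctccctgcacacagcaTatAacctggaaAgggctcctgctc
PSG9: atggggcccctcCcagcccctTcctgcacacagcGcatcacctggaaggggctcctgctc
PSG11: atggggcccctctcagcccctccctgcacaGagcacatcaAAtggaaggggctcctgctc
PSG2: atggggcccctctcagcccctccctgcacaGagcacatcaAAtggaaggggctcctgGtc
PSG1: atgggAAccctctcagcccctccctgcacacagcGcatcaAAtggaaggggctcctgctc
PSG3 differed from PSG5 at 1 of these bases and PSG1 at 5. Over whole coding sequences, the 45 pairs of genes shared 90.63% to 95.77% of their bases (median 93.43%), with PSG1 and PSG8 the most alike and PSG9 and PSG11 the least.

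Such likeness bears on every value that follows, because a read can fit more than 1 gene. Of all 75-base stretches of the same transcripts, those that no annotated transcript of another gene shares made up 84.1% in PSG5, 91.3% in PSG7 and 79% in PSG8, whose shared stretches were mostly those of PSG1. With 50-base stretches the share was 59.8% to 81.2%, and with 100-base stretches 86.4% to 97.9%. The sources used here do not give how the authors assigned reads that fit several genes, or whether they used strand. The level of a low member beside PSG5 is therefore uncertain, and so is the split between near-identical members, whereas a read moved from one member to another stays within the sum over the 10 genes, apart from the scaling for gene length.

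PSG5 carried most of the family's signal. In the 78 libraries without mometasone the 10 genes summed to a mean of 313.8 (lowest 194, highest 495.3), on the deposited scale, which the authors' unit name makes a length-adjusted one. PSG5 had a mean of 201.8 (125.2 to 305.3) in these libraries. PSG1 followed at 35.97 (16.34 to 57.11), PSG2 at 30.79 (17.78 to 71.53) and PSG9 at 17.57 (8 to 28.4). The ranges of PSG1 and PSG2 overlapped over most of their length, while that of PSG5 lay above all others. PSG4 and PSG6 came next at means of 10.69 and 6.67, and PSG11, PSG8, PSG3 and PSG7 were low at 3.315, 2.752, 2.478 and 1.792. All 10 genes passed the filter on low values (1 or higher in 5 or more libraries), and all 10 had such values among the libraries without mometasone, PSG7 in 69 of the 78.

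Other placental genes were mostly at or near 0 in these cells. Of 22 trophoblast markers in the table, 18 had a mean below 1 over all libraries and 12 a mean below 0.05, among them the chorionic gonadotropin genes CGB3, CGB5 and CGB8, the placental lactogens CSH1 and CSH2, and HLA-G of invasive trophoblast. CSH2 was listed at 0 in all 150 libraries. The 4 markers with a mean of 1 or more were XAGE2 (11.2), CGA (3.152), ERVW-1 (2.283) and PAPPA (2.126). Of airway epithelial markers, KRT17 had the highest mean, 1131, and the simple-epithelium keratins KRT8 and KRT18 had means of 302.7 and 367.2. KRT7 was at 22.91, CDH1 at 3.313 and KRT5 at 1.203. KRT19 (0.5204), KRT14 (0.3362), EPCAM (0.2603) and TP63 (0.1645) were below 1. Of fibroblast markers, mesenchymal VIM had a mean of 1523, COL1A1 of 629.5 and PDGFRB of 110.4, while COL1A2 was at 1.628 and PDGFRA at 0.2903. Of the agents' own markers, TSC22D3, the glucocorticoid-induced leucine zipper, stood higher in every library labelled with mometasone than in every one without at each time, at 18 h 320.4 to 551.8 against 5.45 to 9.85. NR4A3, a cyclic AMP-responsive nuclear receptor, separated the libraries labelled with indacaterol at 1, 2 and 6 h and overlapped at 18 h. Mitochondrial genes took 5.88% to 28.27% of the summed value, over 20% in 6 libraries.

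With mometasone the summed level of the 10 genes fell late, and by 18 h it stood far below that of every library without the steroid. For mometasone alone against vehicle, the pair that chose the genes, the summed level at 18 h was 47.96, 43.01 and 43.12 in the 3 mometasone libraries and 271.2 to 417.17 (median 323.19) in the 4 vehicle libraries. The means were 44.7 ± 2.83 (SD, n = 3) and 334 ± 60.8 (SD, n = 4), so that 13.39% of the vehicle level was left. With all 3 agents at 18 h the level was 33.8 ± 7.32 (SD, n = 3), against 265 ± 27.6 (SD, n = 4) with indacaterol and carbachol. At 6 h mometasone alone left 51.44% of the vehicle level. In these bulk samples, fewer cells making the transcripts and less transcript per cell cannot be told apart.

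**Figure D1:**
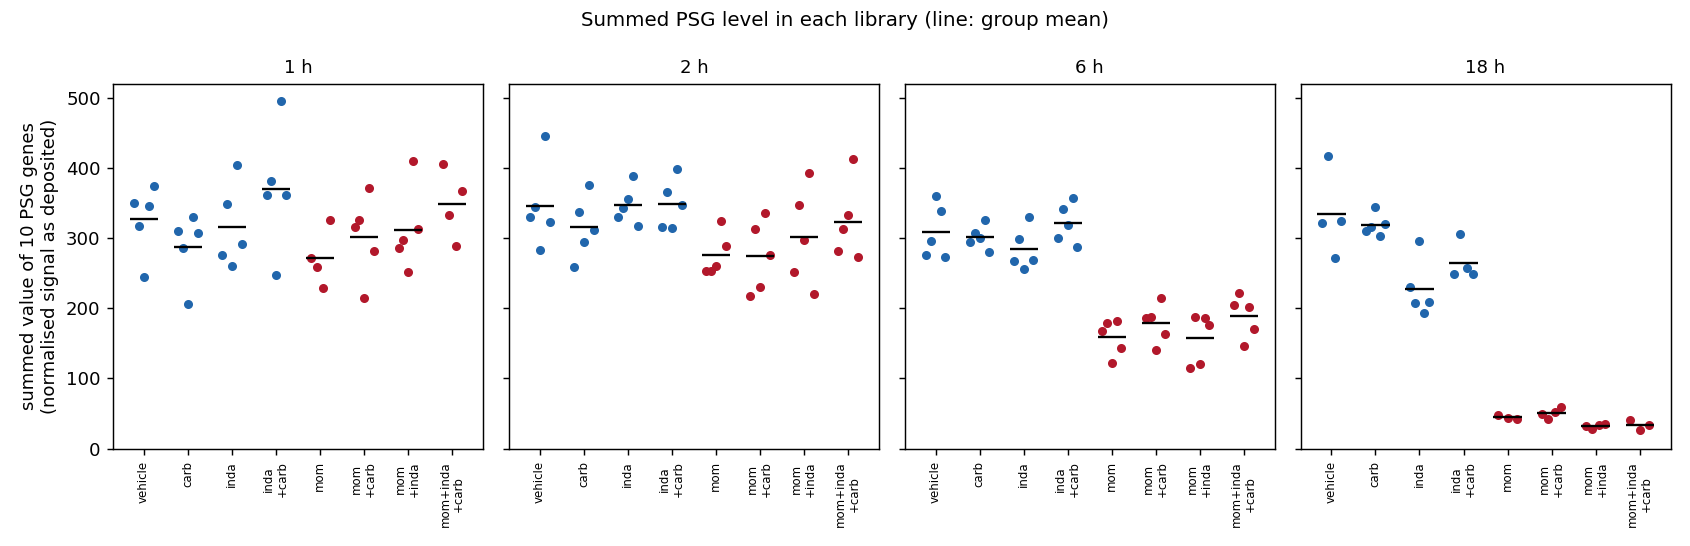
Summed deposited value of the 10 PSG genes in each library (y axis, normalised signal) for the 8 treatments (x axis) at 1, 2, 6 and 18 h; points are libraries, blue without and red with mometasone (mom; inda, indacaterol; carb, carbachol), and bars are group means. The libraries with mometasone overlap those without at 1 and 2 h, lie between 115.21 and 222.3 at 6 h and between 26.37 and 59.09 at 18 h.

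A fall was also found at 18 h in the libraries kept for testing, those with mometasone added to indacaterol or to carbachol. Earlier results of these data were known when the genes were chosen, so these libraries are not fully independent of that choice. The summed level was 50.7 ± 6.997 (SD, n = 4) with mometasone and carbachol and 319 ± 15.8 (SD, n = 5) with carbachol. With mometasone and indacaterol it was 32.3 ± 3.54 (SD, n = 4), against 227 ± 40.4 (SD, n = 5) with indacaterol. The level left was 15.93% on carbachol and 14.19% on indacaterol, and neither pair of groups overlapped. In a limma model over all 32 groups, the change with mometasone was averaged over the 2 backgrounds, and 10 of the 10 genes were lower at an adjusted p below 0.05 (Benjamini-Hochberg over 14827 genes), where 9.6% of all genes tested were called lower. Their median log2 change was -1.90, beside 0.05 over all genes tested. The glucocorticoid targets, a list of 11 genes such as FKBP5 and ZBTB16, were all higher at this time (all genes 10.9%), with a median log2 change of 1.75.

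PSG5 had the largest change on the log2(value + 1) scale, an order that other measures below do not keep. With carbachol its values at 18 h were 207.96, 221.33, 242.93, 210.54 and 218.21, and with mometasone and carbachol 34.59, 29.33, 35.63 and 27.8. With indacaterol they were 146.72, 136.5, 185.38, 125.18 and 131.53, and with mometasone and indacaterol 21.78, 17.77, 20.57 and 15.85. The highest library with mometasone stood far below the lowest without it on both backgrounds. The change over both was -2.81 on the log2(value + 1) scale (SE 0.11, adjusted p = 2.89e-48), a 7.02-fold fall and the rank 3 of all 14827 genes by size of fall.

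PSG1 and PSG9 followed on that scale. PSG1 had values of 30.62, 22.7, 29.82, 23.3 and 33.31 with carbachol at 18 h and of 3.17, 3.05, 3.37 and 4.14 once mometasone was added. On indacaterol the PSG1 values were 32.23, 22.08, 28.95, 18.9 and 26.94, and 3.42, 3.95, 4.31 and 2.99 with mometasone. The groups did not overlap, and the change in PSG1 was -2.60 (SE 0.15, adjusted p = 1.98e-31), 6.07-fold lower and the rank 5. PSG9 had 14.36 to 18.66 in the 5 carbachol libraries (median 18.56) and 2.71, 2.09, 1.59 and 2.29 with mometasone and carbachol. On indacaterol PSG9 went from 9.58 to 13.54 (median 10.58) in 5 libraries to 1.13, 0.85, 1.31 and 1.31. All libraries of PSG9 with mometasone lay below all without, and its change was -2.52 (SE 0.16, adjusted p = 7.35e-29), the rank 7. As ratios of mean deposited values PSG9 fell 7.891-fold on carbachol and 9.861-fold on indacaterol, against 6.916-fold and 7.638-fold in PSG5.

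In PSG2 the replicate 5 libraries with mometasone were high at 18 h. The rule for a library apart, given at the end, flagged none of them and was not applied to groups of 3. PSG2 values with mometasone and carbachol at 18 h were 4.1, 3.91, 7.99 and 21.55 for replicates 2 to 5, and with mometasone and indacaterol 2.95, 2.32, 4.72 and 13.03. In both groups, and in that of all 3 agents with 3.4, 1.36 and 9.11, replicate 5 was the highest. The carbachol libraries lay between 25.33 and 28.29, replicate 5 being the lowest of them, and the indacaterol libraries were 20.18, 17.78, 44.95, 22.87 and 19.31. Taken over both backgrounds the groups overlapped for PSG2 alone among the 10 genes, since 21.55 lies above the lowest indacaterol values, and the change was -1.92 (SE 0.21, adjusted p = 1.03e-13). Without replicate 5, a step added after its values were seen, the ratio of mean values in PSG2 went from 2.87-fold to 5.13-fold lower on carbachol and from 4.35-fold to 7.94-fold on indacaterol. In these libraries PSG2 made up as much as 36.47% of the summed PSG level, and PSG5 as little as 44.32%.

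The other 6 genes fell as well, and among these 6 the log2 change was smaller where the level was lower. PSG4 (rank 18 by size of fall) nonetheless had a larger change than PSG2 (rank 26), whose level was higher. On the log2(value + 1) scale the changes at 18 h were -2.10 in PSG4, -1.88 in PSG6, -1.56 in PSG11, -1.39 in PSG8, -1.26 in PSG3 and -0.85 in PSG7, with adjusted p-values between 1.98e-23 in PSG4 and 4.59e-06 in PSG7. This scale understates the change of a low gene: with a pseudocount of 0.1 in place of 1 the change was -3.09 in PSG8, -3.07 in PSG9, -2.89 in PSG6 and -2.88 in PSG1, all past PSG5 at -2.86, and -1.98 in PSG7. As ratios of mean deposited values, the fall on carbachol ran from 2.872-fold in PSG2 to 8.143-fold in PSG1, with a median of 6.956-fold. On indacaterol it ran from 4.347-fold in PSG2 to 10.69-fold in PSG3, with a median of 7.615-fold. PSG7 had 1.38 ± 0.156 (SD, n = 5) with carbachol and 0.283 ± 0.229 (SD, n = 4) with mometasone and carbachol. Every library with mometasone lay below every library without it, over both backgrounds, in 9 of the 10 genes, where 2.87% of all genes tested did so.

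**Figure D2:**
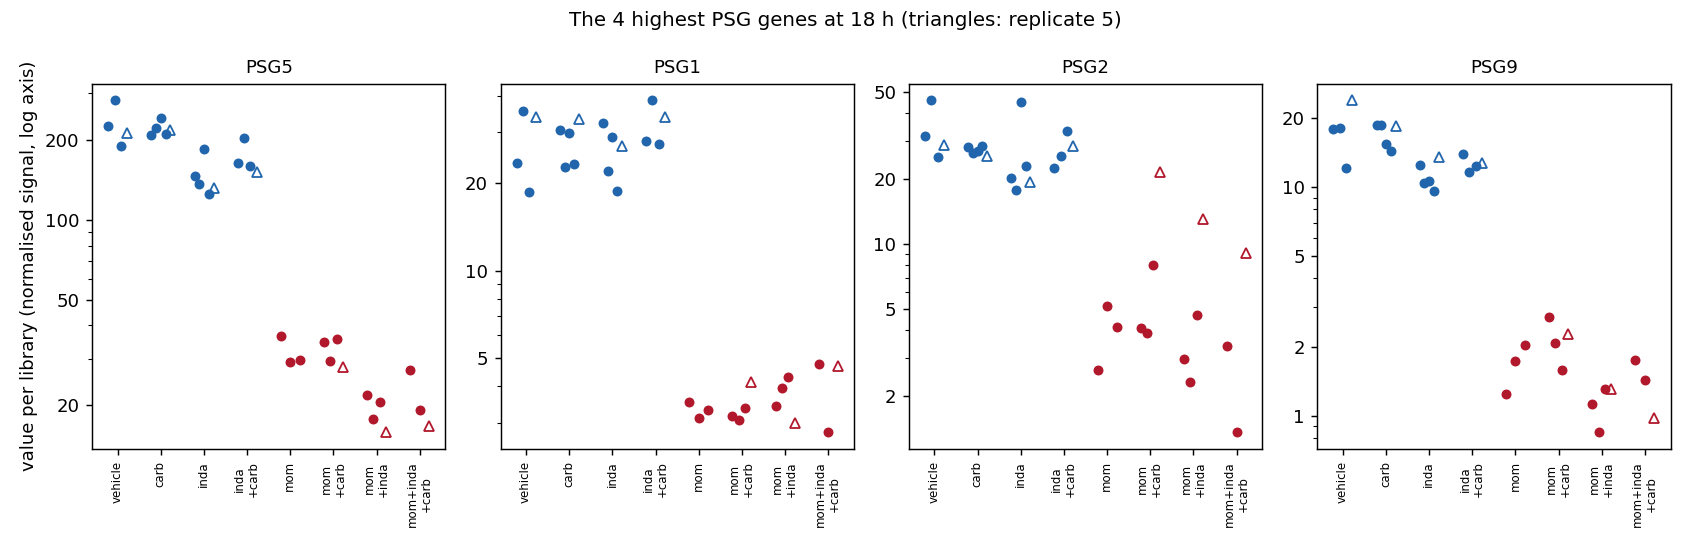
Deposited values of PSG5, PSG1, PSG2 and PSG9 at 18 h in each library (y axis, normalised signal, log scale) for the 8 treatments (x axis); triangles are replicate 5, blue without and red with mometasone. The red points lie below the blue ones in PSG5, PSG1 and PSG9, while in PSG2 the replicate 5 libraries with mometasone reach 21.55, 13.03 and 9.11.

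At 6 h the fall was under way and smaller. PSG5 had 186.48, 212.09, 204.04, 220.56 and 176.07 with carbachol, and 117.93, 123.27, 101.42, 148.05 and 99.19 with mometasone and carbachol. With indacaterol PSG5 had 161.11, 186.67, 170.73, 216.16 and 153.3, and 70.25, 123.98, 83.1, 126.51 and 105.03 with mometasone and indacaterol. The highest value with mometasone, 148.05, lay just below the lowest without it, 153.3, and the change was -0.79 (SE 0.10, adjusted p = 8.75e-11). All 10 genes were called lower over both backgrounds, where 9.27% of genes tested were, and their median log2 change was -0.77. PSG5 was the 1 member whose libraries did not overlap (background 1.6%), against 0 at 1 h (0.027%) and at 2 h (0.128%).

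PSG6 had the largest change at 6 h on the log2(value + 1) scale. PSG6 had 5.9, 6.84, 6.4, 9.06 and 3.64 with carbachol and 2.43, 3.49, 1.09, 2.59 and 2.11 with mometasone and carbachol. With indacaterol PSG6 had 5.26, 7.95, 4.64, 11.46 and 6.63, and 0.98, 4.03, 1.07, 2.53 and 1.75 once mometasone was added. The groups did not overlap within either background, and the change of PSG6 was -1.29 (SE 0.15, adjusted p = 1.02e-12), 2.45-fold lower. As ratios of mean deposited values PSG8 fell most on carbachol, 3.934-fold against 2.719-fold in PSG6, and PSG11 on indacaterol, 4.853-fold against 3.469-fold. The changes of PSG11, PSG3, PSG4, PSG1, PSG8 and PSG9 lay between -0.96 in PSG11 and -0.73 in PSG9. The calls of PSG2 (-0.64, adjusted p = 0.0104), PSG7 (-0.46, adjusted p = 0.0137) and PSG8 (-0.75) were lost without a single replicate: for PSG2 replicate 1 (adjusted p = 0.067), for PSG7 replicate 2 (0.062) or 3 (0.155), and for PSG8 replicate 3 (0.0702).

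At 1 and 2 h no member passed the test without a replicate block. At 1 h the median log2 change was -0.03, and 0 of the 10 genes were called by limma (0.6% of genes tested were lower and 1.09% higher). An unadjusted p below 0.05 was found in 0 of the 10 and in 1070 of the 14827 genes tested. PSG5 at 1 h averaged 201 ± 39.3 (SD, n = 5) with mometasone and carbachol and 190 ± 27.6 (SD, n = 5) with carbachol. At 2 h 0 were called (background lower 1.78%), though the estimate was below 0 in 10 of 10, which are close copies that may share reads. The median was -0.23, beside 0.01 over all genes tested. An unadjusted p below 0.05 was found in 4 of the 10 and in 1590 of the 14827 genes tested. PSG8 came nearest, with 1.65 ± 0.575 (SD, n = 5) on mometasone and carbachol against 3.52 ± 0.666 (SD, n = 5) on carbachol, and a change over both backgrounds of -0.56 (SE 0.18, adjusted p = 0.0517). With the replicate as a block PSG1, PSG5, PSG6 and PSG8 were called lower at 2 h (adjusted p = 0.0485, 0.0245, 0.0306 and 0.00597). The block also raised the lower calls over all 14827 genes tested, from 264 to 739. For the block calls below that concern agents other than mometasone, no share of all genes is given. The numbers pair the carbachol libraries at 2 h, but not those with indacaterol. TSC22D3 was already raised at 1 h, 53.67 to 453 in libraries with mometasone against 5.37 to 13.9 without.

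The change with mometasone grew with time. Against its size at 1 h, the log2 change over both backgrounds was more negative at 6 h in 7 of the 10 genes (background lower 5.67%), all but PSG2, PSG7 and PSG8, and at 18 h in 10 of 10 (background lower 6.33%). At 2 h against 1 h it was called in 0 of the 10 by limma (background lower 0.0944%), and 0 had an unadjusted p below 0.05 (699 of all 14827 genes tested). The growth at 18 h was -2.855 in PSG5 and -0.76 in PSG7, and the call of PSG7 was lost without replicate 3 (adjusted p = 0.0518). At 6 h that of PSG9 was lost without replicate 1 (adjusted p = 0.0706) and that of PSG11 without replicate 3 (adjusted p = 0.0631).

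**Figure D3:**
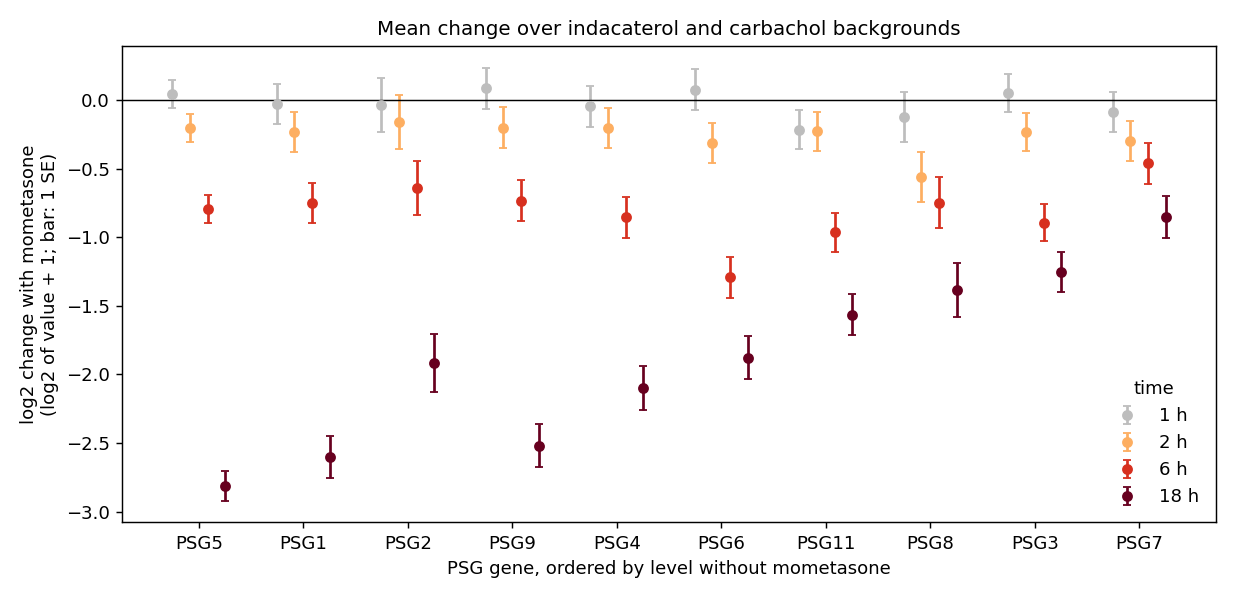
Log2 change with mometasone, averaged over the indacaterol and carbachol backgrounds (y axis, log2 of value + 1; bars 1 SE from limma), for the 10 PSG genes in order of their level without mometasone (x axis) at 4 times. At 18 h the points run from -2.81 in PSG5 to -0.85 in PSG7, and at 1 h they lie about 0.

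Whether mometasone acted differently on the 2 backgrounds was tested directly. The difference of its change between indacaterol and carbachol was called in 0 of the 10 genes by limma at each time (background in either direction 0.0472% at 1 h, 0.357% at 2 h, 0.175% at 6 h and 0.0472% at 18 h). At an unadjusted p below 0.05 there were 0 at 1, 2 and 18 h and 2 at 6 h, PSG11 and PSG8. Of all 14827 genes tested, 810, 744, 437 and 262 were below it at 1, 2, 6 and 18 h. In PSG11 the change at 6 h was more negative on indacaterol by 0.88 on the log2 scale (95% interval of the difference -1.45 to -0.32), and in PSG8 the interval was 0.02 to 1.47. At 18 h the difference in PSG5 was -0.11 with an interval of -0.54 to 0.32. These intervals are not adjusted for the number of genes tested. Those of PSG11 and PSG8 leave out 0, and that of PSG5 holds it.

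PSG5 was also lower at 18 h with indacaterol alone than with vehicle, by a much smaller amount than with mometasone. High vehicle values were part of the choice of the genes, so this comparison is not independent of that choice. PSG5 had 225, 282.39, 189.55 and 213.4 with vehicle and 146.72, 136.5, 185.38, 125.18 and 131.53 with indacaterol, and the highest of the latter lay just below the lowest of the former. The log2 change was -0.64 (SE 0.15, adjusted p = 0.0264), and PSG5 was the 1 of the 10 genes called lower, where 0.0674% of genes tested were. The estimate was below 0 in 10 of 10 genes, which are close copies that may share reads, with a median of -0.24 beside -0.01 over all genes tested. Replicate numbers paired these libraries, and with the replicate as a block PSG9 (-0.63, adjusted p = 0.00276) and PSG4 (-0.65, adjusted p = 0.021) were called as well as PSG5 (adjusted p = 4.73e-06). The call of PSG5 without the block was lost with all libraries scaled to the same sum (adjusted p = 0.867), without replicate 1, 2, 3 or 5 (adjusted p = 0.0656, 0.567, 0.197 and 0.213), and with the compared groups fitted alone (0.715).

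The same direction was seen in PSG5 where indacaterol was added to other agents at 18 h. PSG5 had 163.58, 203.97, 160.12 and 152.02 with indacaterol and carbachol, all below the lowest carbachol library at 207.96. With all 3 agents it had 27.07, 19.17 and 16.64, all below the lowest library with mometasone and carbachol at 27.8. The mean of both differences was -0.49 on the log2 scale (SE 0.12). It was computed because of these values, and its libraries were partly in view when the genes were chosen, so it describes them and supports nothing further. By limma this comparison called 0, 0, 1 and 1 of the 10 genes at 1, 2, 6 and 18 h, PSG1 higher at 6 h and PSG5 lower at 18 h. Of all genes tested it called 2.91% and 7.4% in either direction at 1 and 2 h, 3.62% higher at 6 h and 0.162% lower at 18 h. For the pair of both agents against vehicle, PSG5 was -0.41 at 18 h, called only with the block that pairs those libraries (adjusted p = 0.017). In that comparison 0 of the 10 genes were called by limma at each time without the block (background in either direction 2.4%, 4.45%, 1.99% and 0.0944% in order of time). At an unadjusted p below 0.05 there were 1, 0, 1 and 1, and 1785, 1605, 1257 and 441 of all 14827 genes tested.

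PSG1 went the other way at 6 h. With indacaterol and carbachol PSG1 had 57.11, 48.08, 48.34, 45.99 and 46.45, above all 5 carbachol libraries at 36.26, 26.64, 27.01, 28.45 and 33.61. With all 3 agents it had 33.9, 25.37, 17.16, 21.93 and 26.08, and with mometasone and carbachol 25.73, 18.41, 14.17, 22.82 and 20.88, groups that overlapped. The mean of both differences was 0.48 (SE 0.14), again a description computed after the values were seen. Against vehicle at 6 h, PSG1 was not called with indacaterol and carbachol (0.54, adjusted p = 0.245). It was called higher with the replicate block, which pairs those libraries (adjusted p = 0.000567). The same call was made when replicate 3 was left out (0.58, adjusted p = 0.0356) or when only the compared groups were fitted (adjusted p = 0.00742). PSG1 made up 8.283% of the summed PSG level with vehicle at 18 h, 11.4% with indacaterol and 12.03% with indacaterol and carbachol. With indacaterol its mean deposited value was 1.08-fold lower than with vehicle, so the larger share there was not a higher PSG1 level. With indacaterol and carbachol the PSG1 libraries overlapped those with vehicle.

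At 1, 2 and 6 h indacaterol alone moved no member past the test without the block. Against vehicle, 0 of the 10 genes were called by limma at 1, 2 and 6 h (background in either direction 1.4%, 3.91% and 1.74%). An unadjusted p below 0.05 was found in 0, 1 and 2 of them, and in 652, 1425 and 1187 of all 14827 genes tested. At 2 h the block, which pairs these libraries, called PSG6 higher (0.50, adjusted p = 0.0147), where PSG6 had 8.75 ± 1.52 (SD, n = 5) with indacaterol and 6.05 ± 2.02 (SD, n = 5) with vehicle. At 6 h PSG8 had 4.48, 3.29, 4.84, 0.52 and 2.57 with vehicle and 0.37, 1.52, 3.16, 0.43 and 0.87 with indacaterol, lower in each of the 5 numbers though the groups overlapped. The change in PSG8 was -0.86 (adjusted p = 0.0653), and it was called without replicate 4 (-1.05, adjusted p = 0.0396) and with the block (adjusted p = 0.00407), although the numbers do not pair these libraries.

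Carbachol alone moved no member past the test at any time. By limma 0 of the 10 genes were called at 1, 2, 6 and 18 h (background in either direction 0.0809%, 0.027%, 0% and 0.00674%). An unadjusted p below 0.05 was found in 0, 1, 0 and 0 of them, and in 302, 260, 124 and 171 of all 14827 genes tested. PSG5 at 18 h averaged 220 ± 13.8 (SD, n = 5) with carbachol and 228 ± 39.4 (SD, n = 4) with vehicle, with a 95% interval of the log2 difference of -0.34 to 0.27. Time in vehicle moved none either: at 2, 6 and 18 h against 1 h 0 were called by limma (background in either direction 0.0135%, 0.324% and 0.121%). An unadjusted p below 0.05 was found in 0, 0 and 1 of them, and in 554, 1124 and 1077 of all 14827 genes tested. PSG1 at 18 h against 1 h in vehicle was called only without replicate 3 (-0.71, adjusted p = 0.0441).

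Some of the genes beside the block were lower with mometasone too. Of 20 protein-coding neighbours, 10 on each side, 17 were tested, and at 18 h over both mometasone backgrounds 4 were lower and 1 higher (9.6% and 10.9% of all genes tested), with a median log2 change of -0.11 beside -1.90 in the PSG genes. At 1 h 1 was lower and 0 higher (all genes 0.6% and 1.09%), and at 2 h 3 and 0 (all genes 1.78% and 3.39%). At 6 h 4 were lower and 0 higher (all genes 9.27% and 12.1%). CD177, a neutrophil surface protein, is 84.1 kb from the PSG9 end. At 18 h it had the largest fall of these neighbours, -1.21 (SE 0.11, adjusted p = 4.50e-19). Its level was low, and as a ratio of mean deposited values it fell from 2.344 to 0.3775 on carbachol, 6.21-fold, and from 1.858 to 0.275 on indacaterol, 6.76-fold, within the range of the PSG genes. ETHE1, a mitochondrial sulfur dioxygenase, was at -0.94 (adjusted p = 4.57e-10) and PHLDB3 at -0.60 (adjusted p = 2.51e-05). On the PSG3 side CEACAM1, 160 kb away, was at 0.09 (adjusted p = 0.825). Of 12 relatives in the CEACAM branch of the family, 2 were tested, CEACAM1 and CEACAM19 (0.34, adjusted p = 0.127), and neither was called.

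**Figure D4:**
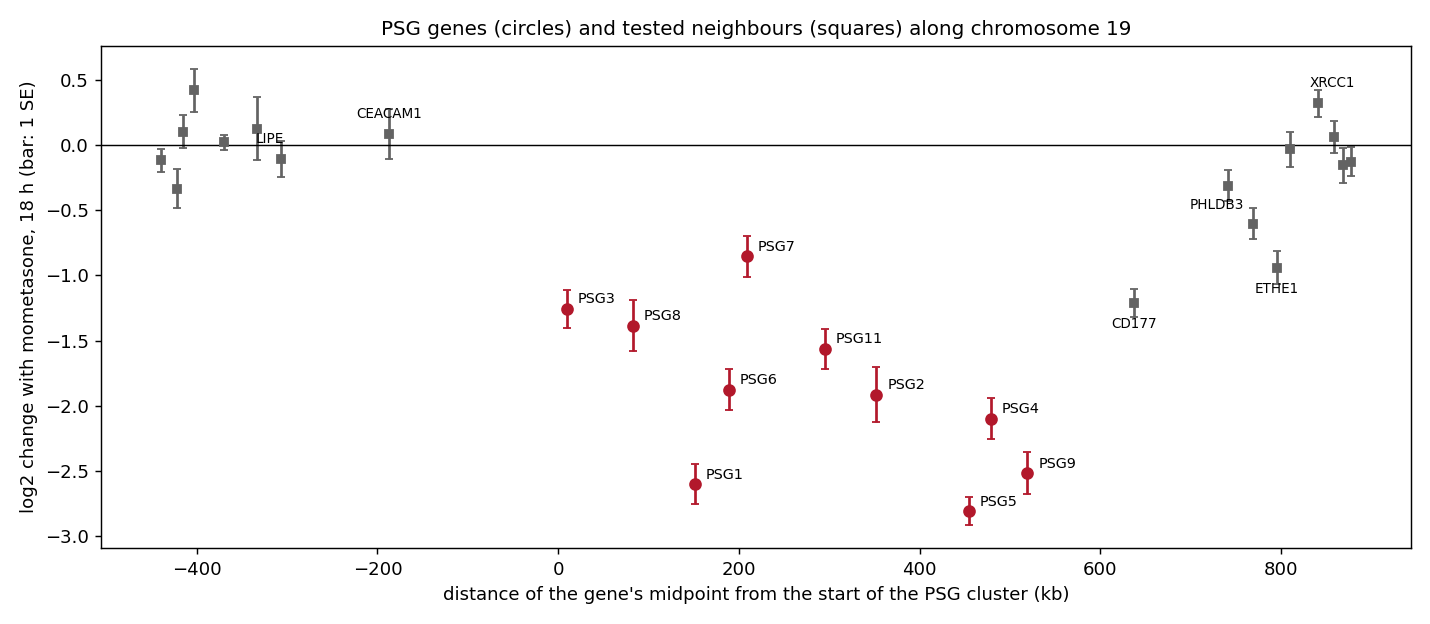
Log2 change with mometasone at 18 h over both backgrounds (y axis, log2 of value + 1; bars 1 SE from limma) against the distance of each gene's midpoint from the start of the PSG block on chromosome 19 (x axis, kb); circles are PSG genes and squares are tested neighbours. All circles lie at -0.85 or lower, and among the squares CD177 is lowest at -1.21.

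Some of the factors known to act at PSG promoters rose early. Of 6 such genes, 2 were higher with mometasone over both backgrounds at 1 h (all genes 1.09%), 3 at 2 h (all genes 3.39%) and 2 at 6 h (all genes 12.1%). None was lower at these times (all genes 0.6%, 1.78% and 9.27%). At 18 h 1 was higher and 1 lower (all genes 10.9% and 9.6%). KLF6, a zinc-finger factor, was at 2.18 at 1 h (adjusted p = 2.18e-07), 2.38 at 2 h (adjusted p = 4.17e-09), 0.81 at 6 h (adjusted p = 0.0644) and 0.47 at 18 h (adjusted p = 0.398). KLF4, its relative, was at 1.92, 2.15, 0.75 and 0.30 at the same times, and called at the first 3 of them. GABPB1, a subunit of the GABP factor, was at -0.31 at 18 h (adjusted p = 0.0364). The changes of KLF4 and KLF6 were thus largest at 1 and 2 h, before the larger PSG changes of 6 and 18 h. A link between them was not tested.

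Promoters of PSG3, PSG4 and PSG5 were matched in RefSeq (GRCh38.p14), 3 of 10. The 150 bases before the RefSeq start of PSG5, chr19:43186537-43186686 on the minus strand, are shown because PSG5 has the highest level of the family, read 5′ to 3′ towards the start, with the motif CCCACCC in capitals.
PSG5 promoter: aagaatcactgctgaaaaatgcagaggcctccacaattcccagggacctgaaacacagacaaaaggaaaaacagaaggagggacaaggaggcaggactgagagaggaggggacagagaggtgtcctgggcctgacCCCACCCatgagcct
CCCACCC, the core of the KLF6 site, begins at position -15 from the start. Searched on both strands in windows of 300 bases about the start, it was in 1 of the 3 PSG promoters and in 19.6% of 35116 promoters. The hexamer AGAACA of the glucocorticoid response element (14.8% of all promoters), the full palindromic element of that name (0.00285%), the AP-1 site TGANTCA (7.71%) and the TEAD site GGAATG (14%) were in 0 of the 3. A match is only a description of these letters, and the 150-base stretches of the 3 genes were 95.9% to 98.3% identical where they align.

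Of 13 genes for proteins or partners that pregnancy-specific glycoproteins are known to bind, 9 were lower at 18 h over both mometasone backgrounds and 0 higher, where 9.6% of all genes tested were lower and 10.9% higher, with a median log2 change of -0.41. At 1 and 2 h 0 were called (all genes 0.6% lower and 1.09% higher at 1 h, 1.78% and 3.39% at 2 h). At 6 h 4 were lower and 2 higher (all genes 9.27% and 12.1%). The heparan sulfate proteoglycans SDC1 (-1.03, adjusted p = 8.19e-23) and SDC2 (-1.03, adjusted p = 0.000715) and the galectin LGALS1 (-0.81, adjusted p = 6.70e-07) had the largest changes. The latent form of TGF-β is another partner. Of 12 TGF-β target genes 5 were lower and 2 higher at 18 h (all genes 9.6% and 10.9%), with a median of -0.20. Among those that fell, BHLHE40, a repressor of transcription, was at -2.26 (adjusted p = 4.80e-13) and PMEPA1 at -1.10 (adjusted p = 5.08e-11).

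Markers of other cells were followed beside the fall. Of the 22 trophoblast markers 6 were tested, and over both mometasone backgrounds at 18 h 3 were higher and 0 lower (all genes 10.9% and 9.6%): XAGE2 at 1.91 (adjusted p = 3.87e-14), PAPPA, a metalloproteinase of pregnancy plasma, at 1.43 (adjusted p = 6.18e-12) and CGA, the gonadotropin alpha subunit, at 0.71 (adjusted p = 0.00289). Their summed level at 18 h was 8.39 to 18.67 without mometasone and 30.35 to 69.63 with it, the opposite direction to that of the PSG genes. Of 10 airway epithelial markers 8 were tested, 4 lower and 1 higher, with KRT17 at -1.95 (adjusted p = 1.87e-17), CDH1 at -1.25 (adjusted p = 1.61e-06) and KRT5 at 1.11 (adjusted p = 4.90e-09). Their summed level at 18 h was 988.4 to 1520 without mometasone and 372.5 to 634.6 with it. Of 5 fibroblast markers 4 were tested and 2 were lower, COL1A1 (-0.89, adjusted p = 1.19e-15) and COL1A2 (-0.34, adjusted p = 0.00626), with a summed level of 2079 to 2565 without and 1647 to 2029 with mometasone. Of 5 leukocyte markers 2 were tested and PTPRC was higher (0.42, adjusted p = 0.00753), with CD3E below 0.05 on average and a summed level of 1.26 to 2.71 without and 1.62 to 3.99 with mometasone. None of the 3 endothelial markers was tested. The part of these shifts in the PSG result was not tested.

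The genes whose pattern was most like that of the family were taken by Pearson's r with the log2 summed PSG level over the 32 group means, a description over groups that share the mometasone contrast. They were the receptor tyrosine kinase AXL (0.981), the carboxypeptidases CPA4 (0.9809) and CPA3 (0.9807), the cell adhesion protein L1CAM (0.9796) and SDC1 (0.975). The members themselves had 0.9986 in PSG5, 0.9953 in PSG9 and 0.8583 in PSG8, the lowest. At 18 h CPA4 averaged 98.9 ± 24.6 (SD, n = 5) with carbachol and 6.14 ± 0.993 (SD, n = 4) with mometasone and carbachol, and AXL 491 ± 93.8 (SD, n = 5) and 213 ± 35.7 (SD, n = 4). Like PSG5, CPA4 stood lower with indacaterol than with vehicle in its means, 52.2 ± 20.1 (SD, n = 5) against 90.6 ± 48.3 (SD, n = 4), but there the libraries overlapped.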

How the data were processed

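RNA sequencing values of BEAS-2B cells came in a single table for 29273 genes. Per the submitters' processing notes, bcl2fastq 2.17.1.14, STAR 2.4.2a and GRCh38 were used; no source used here gives the quantifier, the annotation, strand use or the treatment of reads with several matches. The authors name the values TPM, but columns sum to 847289 to 1498421, so the deposited values were treated as a normalised signal, although TPM had been assumed in the design. Of 160 columns 10 were not used: 6 headed 8 h, a time in no label, and 4 marked excluded.

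Genes at 1 or more in 5 or more libraries (14827; 14446 left out) entered limma 3.58.1 (R 4.3.3) on the log2(value + 1) scale, with 32 group coefficients, 118 residual degrees of freedom, an eBayes trend and Benjamini-Hochberg adjustment over all genes within a comparison, called below 0.05. The test was checked on simulated data with 200 changed genes. Noise there was independent between libraries, so the check does not cover correlated replicates. Members and lists were chosen with earlier results of these data known. Named genes outside the family are the 5 most like its summed level, up to 3 of each list by absolute change at 18 h, and TSC22D3 and NR4A3; KLF4 and KLF6 at other times, and the genes that give a list's levels, were named after values were seen. Some genes that this rule names are not reported here.

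Replicate numbers come from the sample titles. They were taken to pair 2 groups where, in at least 3 pairs, the deviations of every same-numbered pair from their group means had a correlation over 0.1. This was so in 2 of 7 pairs of groups at 1 h, 6 at 2 h, 3 at 6 h and 7 at 18 h (r from -0.34 to 0.865). Alternatives were 2 pseudocounts, no filter, 2 scalings, no trend, the replicate block, fewer groups, and leaving out each replicate or the libraries over 20% mitochondrial signal. Coordinates and transcripts are from GENCODE 29 and promoters from RefSeq.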

Additional observations from a re-analysis of the deposited data

Results flagged for a closer look

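The lowest or highest library stood apart from the rest of its group, by its gap to the next library relative to the group's range, in 8 of 150 groups tested (the summed level, PSG5, PSG1, PSG2 and PSG9, each in 30 groups of 4 or 5 libraries), and chance alone gives about 1 in 20. The summed PSG level was 306.03 in replicate 3 of indacaterol with carbachol at 18 h, and the others lay between 248.62 and 256.75. PSG5 was 168.7 in replicate 3 of vehicle at 1 h, below the others at 209.75 to 223. PSG1 was 24.61 in replicate 3 of indacaterol at 1 h (others 36.03 to 39.53) and 57.11 in replicate 1 of indacaterol with carbachol at 6 h (others 45.99 to 48.34). PSG2 was high in replicate 4 at 2 h with mometasone (37.52, others 19.87 to 23.7) and with all 3 agents (54, others 24.5 to 32.7), and in replicate 3 of indacaterol at 18 h (44.95, others 17.78 to 22.87). PSG9 was 25.98 in that same replicate 4 of all 3 agents at 2 h, where the others lay between 16.54 and 18.55. In 3 of the 8 cases the gene was PSG2.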

How the results depend on the processing

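The 10 calls at 18 h and the 10 at 6 h with mometasone over both backgrounds kept their direction under all alternatives run, and no result reversed. The calls lost at 6 h are given with their genes above.

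At 2 h the count with mometasone went from 0 to 1 (PSG8) with median-ratio scaling, with the compared groups only and with each time alone, and to 4 with the replicate block, where the numbers do not pair all groups. With the block the counts were 1 for indacaterol at 2 h and, unpaired, at 6 h, 3 at 18 h, and 1 for both agents against vehicle at 6 h and at 18 h. The shares of all genes called with the block in these comparisons are not given here. Fitting the compared groups only gave 1 for both agents at 6 h and 0 for indacaterol at 18 h, and scaling all libraries to the same sum gave 0 there as well. Leaving out a replicate gave 0 to 1 for indacaterol at 6 h (1, PSG8, without replicate 4) and at 18 h (0 without replicate 1, 2, 3 or 5), for both agents at 6 h (1, PSG1, without replicate 3), and for vehicle at 18 h against 1 h (1, PSG1, without replicate 3).

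In the comparison added after values were seen, indacaterol over carbachol and over mometasone with carbachol, the block gave 5 at 1 h (unpaired), 3 at 2 h, 3 at 6 h (unpaired) and 2 at 18 h. The share of all genes called with the block is not given for it either. Leaving out a replicate gave 0 to 1 at each time, with 1 (PSG1) at 1 and 2 h without replicate 3. At 2 h each time alone gave 1. At 6 h pseudocounts of 0.1 and 0.5 gave 3 and 2, and median-ratio scaling 0. At 18 h the same sum and the compared groups only gave 0. The causes were not tested.

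With the block the calls of all genes with mometasone over both backgrounds at 18 h went from 1424 lower and 1614 higher to 2437 and 2884, and with median-ratio scaling to 1664 and 1274. At 6 h, from 1375 lower and 1788 higher, the block gave 2752 and 3210 and the same sum 1374 and 1232. Read depth is unknown, and PSG6, PSG7, PSG8, PSG3 and PSG11 had means below 1 at 18 h with mometasone.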
